A study of Lachancea kluyveri with 31 samples.

Results

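Ferric reductase genes FRE1 to FRE5 of the budding yeast Lachancea kluyveri were followed across 8 groups of microarrays. They were chosen by locus tag, as every probe whose name starts with SAKL0F10582g (FRE1), SAKL0F14718g (FRE4), SAKL0F14740g (FRE5), SAKL0F14762g (FRE3) or SAKL0F14784g (FRE2). This gave 10 of 10620 probes, 2 for each of 5 genes, out of 5312 genes on the array. The letter in each tag places all 5 genes on chromosome F. FRE4, FRE5, FRE3 and FRE2 follow each other in the order of the tags with no other locus of the array between them, and FRE1 lies apart from this tandem cluster, with 179 loci between.

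Ferric reductases are membrane flavocytochromes that pass electrons from cytosolic NADPH to ferric iron outside the cell. Ferric iron is poorly soluble, and its reduction yields ferrous iron, which the multicopper oxidase and permease pair FET3 and FTR1 then carries inward. In Saccharomyces cerevisiae, Fre1 and Fre2 account for most of the surface activity, Fre1 also reduces copper, Fre3 and Fre4 act on siderophore-bound iron, and Fre5 has been placed in mitochondria. The transcription factor Aft1 activates the uptake genes of that species when iron is scarce. Names here follow the gene list of the study, in which another list gives FRE4 and FRE2 the same S. cerevisiae name, so a shared number does not show a one-to-one relation between the species.

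Cells came from 4 strains, all ura3. sef1Δ cells (SkSef1KA1, sef1Δ::KanMX6) lack the zinc cluster transcription factor Sef1, aft1Δ cells (SkAft1KA22, aft1Δ::KanMX6) lack Aft1, and sef1Δaft1Δ cells (SkSef1KAft1HA1, sef1Δ::KanMX6 aft1Δ::HphMX4) lack both. The wild type (WT) was JYL1897, MATa ura3. Each mutant was a single strain. From overnight YPD cultures, cells at a starting 0.5 OD600/ml spent 5.5 h at 30°C, either at low iron, with the chelator BPS, or at high iron, with added ferrous iron. The labels give the amounts as 200 mM BPS and 400 mM ferrous iron, where the methods of the study have the same figures in µM. There were 4 arrays per group, except 3 for sef1Δ at high iron, 31 in all.

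Signals are given as a percentage of the 75th percentile signal of the same array, written % P75, and differences as log2 fold changes on that scale. The 2 probes of a gene differ in brightness, so a level is compared only within 1 probe. A probe was called higher or lower when the adjusted p of the limma fit over all probes was at most 0.05 and the change at least 1.5-fold. Each strain had its own slide, and scanning took place in 2 sessions, with WT in one and the 3 mutants in the other. Differences between strains therefore cannot be told apart from differences between slides. A slide offset that is constant in log2 cancels in a difference between iron responses. A difference in background between slides need not cancel, above all for dim probes. Low-iron and high-iron arrays filled different rows of each slide, so iron level and slide row go together. The study calls its arrays biological repeats, and the p-values measure the spread between these arrays.

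Between 97.8% and 99.7% of probes were well above background on each array, and 0 spots were saturated. Bright spots were read from a low-gain scan and scaled up. This held for FRE4 probe 2 in WT at low but not high iron, and for FRE4 probe 1 in WT but not in aft1Δ. For FRE1 probe 2 in sef1Δ at low iron it held for replicates 1 and 2 but not 3 and 4. The part of scan gain in these differences was not tested. The 75th percentile signal ran between 10424 and 23244 intensity units. The SEF1 probe gave 0.508 to 0.919% P75 in sef1Δ cells and 0.689 to 1.36% P75 in sef1Δaft1Δ cells, against 21.8 to 26.2% P75 in WT. It was still well above background on 3 of 3 high-iron and 3 of 4 low-iron sef1Δ arrays, and on every sef1Δaft1Δ array. The AFT1 probe was well above background on 0 arrays of aft1Δ and sef1Δaft1Δ cells, against all WT arrays. Judged by signal level, the deleted genes matched the labels. The 10 FRE probes were well above background on every array, except FRE2 probe 2 on 0 of 4 aft1Δ low-iron arrays and FRE5 probe 2 on 3 of 4 aft1Δ and 3 of 4 sef1Δaft1Δ low-iron arrays.

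In WT cells all 5 genes had more signal at low iron, and both probes of each gene were called higher. The study listed these 5 genes as low-iron-induced from these same arrays, so their rise in WT is no independent evidence. The 10 calls, 10 of 10 probes, stood against 3.06% of all probes called higher in this comparison, and 0 were lower, against 1.97%. In each of the 10, every low-iron array exceeded every high-iron array, which held for 10.1% of all probes. The median of the 10 log2 fold changes was 3.73, and that of all probes 0.0011. FRE1 had the smallest changes among the 10, 1.74-fold on probe 1 and 1.56-fold on probe 2. The call of FRE1 probe 2 was lost under quantile normalization (log2 0.57) and without WT low-iron replicate 3 (log2 0.58), both under 1.5-fold. The other 9 calls held under those settings, and the cluster genes ran between 4.37-fold at FRE5 probe 1 and 337-fold at FRE4 probe 2.

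**Figure D1:**
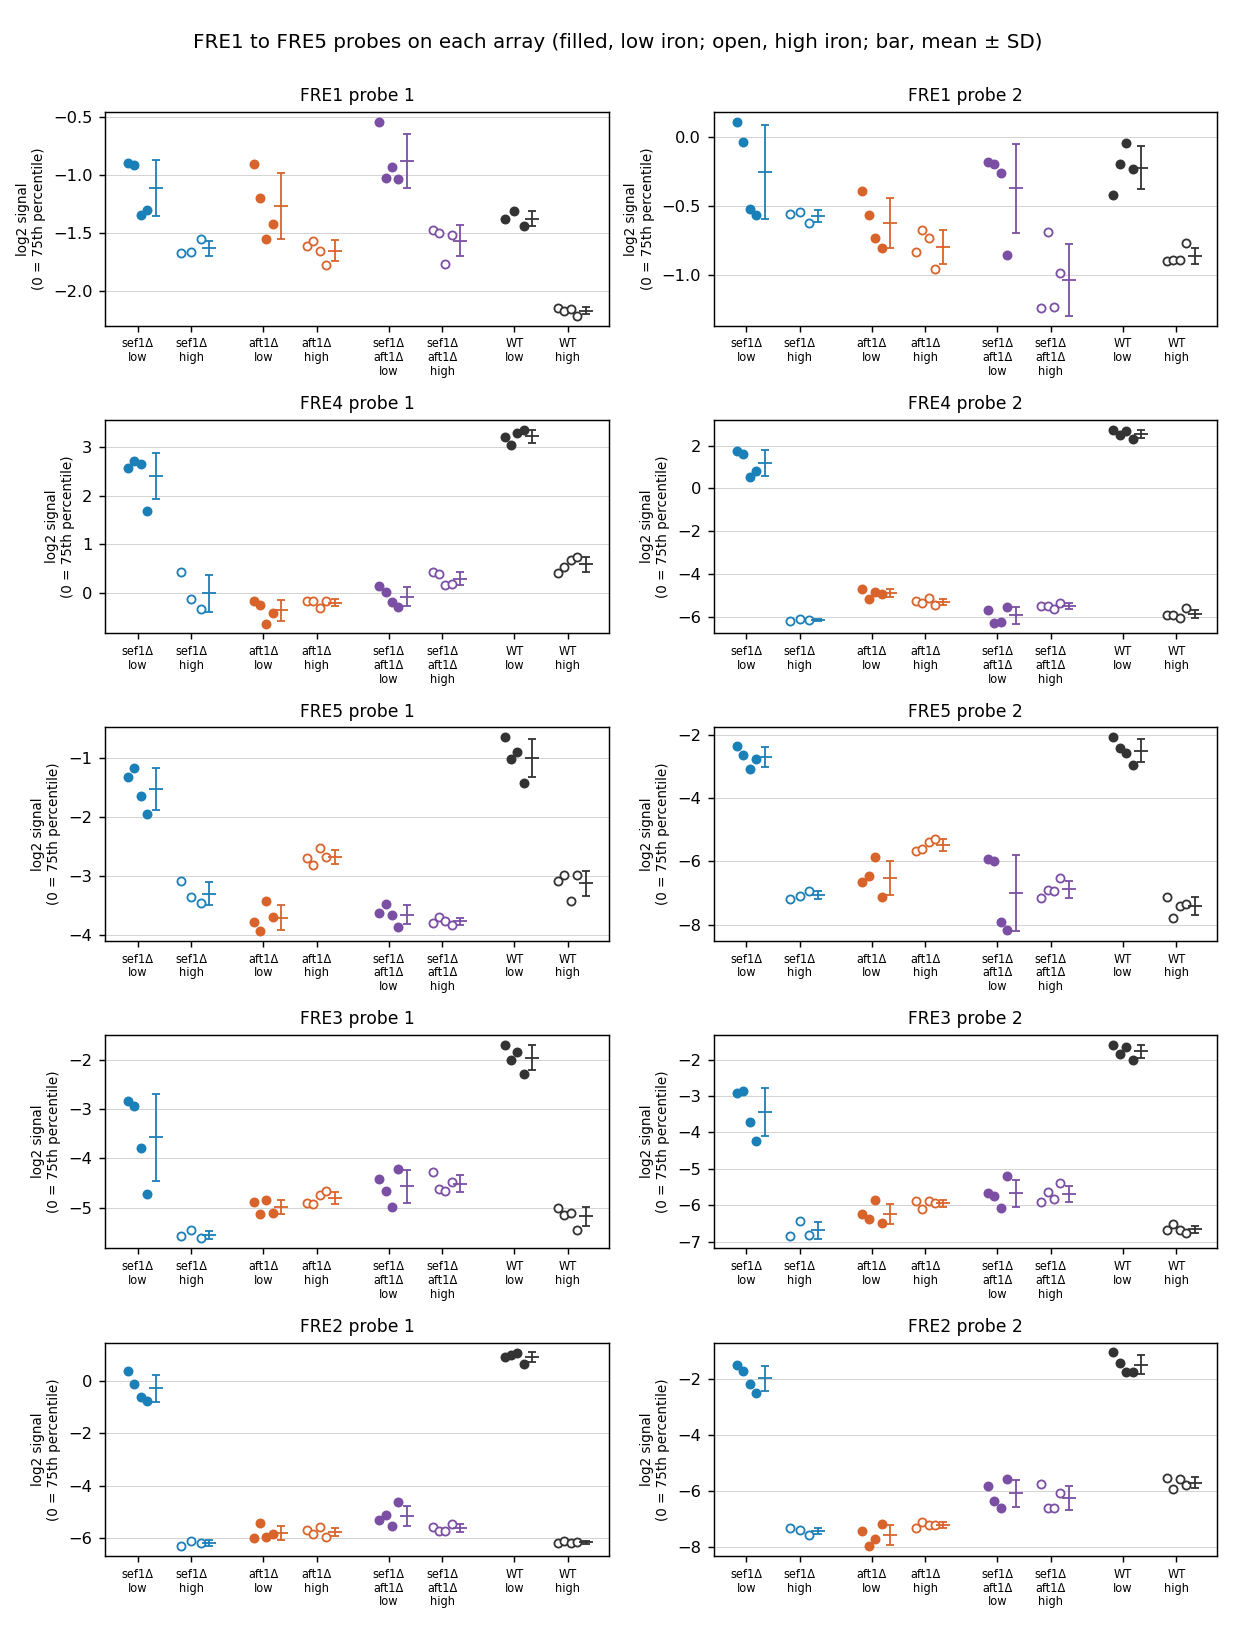
Signal of the 10 FRE probes on each of the 31 arrays, as log2 of the ratio to the 75th percentile of the array (y axes differ between panels), for low iron (filled) and high iron (open) in sef1Δ, aft1Δ, sef1Δaft1Δ and WT cells, with the mean ± SD of each group. For the cluster genes the low-iron arrays of sef1Δ and WT stand above all other groups, except that 1 sef1Δ array of FRE3 probe 1 lies among them, whereas for FRE1 all groups lie within about 2 log2 units.

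FRE1 rose modestly at low iron in WT, and its levels in the 8 groups lay close together. Probe 2, the brighter of its pair, gave 74.5, 87.4, 96.9 and 85.2% P75 at low iron, against 53.5, 53.9, 54.0 and 58.5% P75 at high iron. The log2 fold change was 0.64 ± 0.15 (SE, adjusted p = 0.00314). Probe 1 gave 38.4, 40.3 and 36.8% P75 at low iron, its other spot there having been marked as a non-uniform outlier and left out, against 22.5, 22.2, 22.4 and 21.5% P75 at high iron. That was a log2 fold change of 0.80 ± 0.13 (SE, adjusted p = 8.39e-05). The 2 groups did not overlap on either probe.

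In the mutants FRE1 was called in sef1Δaft1Δ alone. On probe 2, sef1Δ arrays read 108, 97.3, 69.7 and 67.4% P75 at low iron, against 67.8, 68.7 and 64.8% P75 at high iron. aft1Δ arrays read 76.1, 67.5, 60.1 and 57.2% P75 at low iron, against 56.1, 62.7, 60.1 and 51.5% P75 at high iron. sef1Δaft1Δ arrays read 88.2, 87.1, 83.5 and 55.3% P75 at low iron, against 42.2, 61.9, 42.5 and 50.4% P75 at high iron. On this probe low and high iron overlapped in all 3 mutants, while on probe 1 they did not. The sef1Δaft1Δ response was called on both probes, with log2 fold changes of 0.68 ± 0.12 on probe 1 (SE, adjusted p = 6.01e-05) and 0.67 ± 0.15 on probe 2 (SE, adjusted p = 0.000592). The corresponding values were 0.52 and 0.32 in sef1Δ and 0.39 and 0.17 in aft1Δ, and none of these 4 was called. On probe 1 the adjusted p was 0.00836 in sef1Δ and 0.0457 in aft1Δ, so there only the fold fell short. The response of sef1Δaft1Δ minus that of aft1Δ was 0.30 on probe 1 (adjusted p = 0.216) and 0.49 on probe 2 (adjusted p = 0.0838), neither called. The sef1Δaft1Δ call was lost under 2 of 19 alternatives on probe 1 and under 2 of 20 on probe 2.

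The difference from WT in the FRE1 response was tested directly and was called for neither probe in any mutant. For aft1Δ it was -0.41 on probe 1 (95% interval -0.78 to -0.04, adjusted p = 0.177) and -0.47 on probe 2 (95% interval -0.89 to -0.04, adjusted p = 0.184). For sef1Δaft1Δ it was -0.11 on probe 1 (95% interval -0.48 to 0.26) and 0.03 on probe 2 (95% interval -0.40 to 0.45). The sef1Δ differences were -0.28 and -0.32, with intervals that also held 0. On probe 2 the groups ranked from WT low iron (85.6% P75 as a geometric mean) to sef1Δaft1Δ high iron (48.6% P75), and every group overlapped the next one down. On probe 1 all mutant arrays read 29.0% P75 or more, against 21.5 to 22.5% P75 in WT at high iron, which stood apart as the lowest group. The size of this gap depended on the processing. At high iron the log2 differences from WT were 0.54 in sef1Δ, 0.52 in aft1Δ and 0.61 in sef1Δaft1Δ. Over other settings they went down to 0.32, 0.19 and 0.27.

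FRE4, the first gene of the cluster by tag, had on its probe 2 the largest WT change among the 10 probes. This probe gave 667, 558, 637 and 493% P75 in WT at low iron, against 1.67, 1.68, 1.54 and 2.10% P75 at high iron. The log2 fold change was 8.40 ± 0.19 (SE, 337-fold, adjusted p = 1.41e-24). FRE4 probe 1 gave 926, 818, 976 and 1020% P75 at low iron, against 132, 145, 160 and 168% P75 at high iron, a log2 fold change of 2.63 ± 0.17 (SE, 6.19-fold, adjusted p = 3.22e-13). The 2 groups lay far apart on both probes, and probe 1 kept a strong signal at high iron where probe 2 was near its lowest.

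In the strains without Aft1 FRE4 was called neither higher nor lower at low iron. On probe 2, aft1Δ arrays read 3.85, 2.85, 3.55 and 3.26% P75 at low iron, against 2.63, 2.43, 2.93 and 2.31% P75 at high iron. sef1Δaft1Δ arrays read 1.97, 1.30, 1.33 and 2.19% P75 at low iron, against 2.25, 2.27, 2.01 and 2.48% P75 at high iron. Both pairs of groups overlapped. sef1Δ arrays read 336, 308, 143 and 176% P75 at low iron, against 1.38, 1.49 and 1.42% P75 at high iron, so every low-iron array of sef1Δ was above every high-iron one and below every WT low-iron array. On probe 1 the mutant low-iron readings were 596, 650, 628 and 321% P75 in sef1Δ, 64.5 to 89.1% P75 in aft1Δ and 81.7 to 110% P75 in sef1Δaft1Δ. All low-iron arrays of aft1Δ and sef1Δaft1Δ were below the lowest WT high-iron array on that probe, at 132% P75.

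FRE5, whose S. cerevisiae namesake has been found in mitochondria, was the one cluster gene called between low and high iron in aft1Δ cells. In WT, probe 1 gave 64.3, 49.9, 53.8 and 37.3% P75 at low iron, against 11.8, 12.7, 9.31 and 12.7% P75 at high iron, a log2 fold change of 2.13 ± 0.15 (SE, adjusted p = 5.61e-12). Probe 2 gave 24.1, 18.8, 16.8 and 13.1% P75 at low iron, against 0.720, 0.450, 0.591 and 0.608% P75 at high iron. Its log2 fold change was 4.93 ± 0.34 (SE, 30.5-fold, adjusted p = 2.42e-12), or 3.49 under another background correction (normexp). The groups did not overlap on either probe.

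In aft1Δ cells FRE5 fell at low iron. Probe 1 gave 7.27, 6.54, 9.31 and 7.75% P75 at low iron, against 15.5, 14.3, 17.5 and 15.6% P75 at high iron, a log2 fold change of -1.04 ± 0.15 (SE, adjusted p = 2.23e-05). Probe 2 gave 0.995, 1.15, 1.74 and 0.708% P75 at low iron, against 1.99, 2.07, 2.41 and 2.57% P75 at high iron, a log2 fold change of -1.05 ± 0.34 (SE, adjusted p = 0.0479). No low-iron array reached any high-iron array on either probe. The probe 1 call held under all 20 alternatives. The probe 2 call sat at the threshold, with adjusted p between 0.00865 and 0.156 over 19 alternatives, 13 of which lost it, among them leaving out any high-iron array or low-iron replicate 1, 2 or 4. In sef1Δaft1Δ cells FRE5 probe 1 read 8.12, 8.96, 7.95 and 6.89% P75 at low iron, against 7.21, 7.77, 7.33 and 7.04% P75 at high iron, and the groups overlapped. The difference in response between sef1Δaft1Δ and aft1Δ was 1.15 ± 0.21 on probe 1 (SE, adjusted p = 0.000307) and 0.92 ± 0.48 on probe 2 (SE, adjusted p = 0.163).

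FRE3 rose at low iron in WT and in sef1Δ cells, and to a lower level in sef1Δ. Probe 1 gave 31.1, 25.2, 27.9 and 20.6% P75 in WT at low iron, against 3.12, 2.83, 2.88 and 2.26% P75 at high iron (log2 fold change 3.23 ± 0.24, SE, adjusted p = 1.42e-11). Probe 2 gave 32.9, 27.9, 31.8 and 24.9% P75 at low iron, against 0.966, 1.08, 0.981 and 0.910% P75 at high iron (log2 fold change 4.89 ± 0.21, SE, adjusted p = 1.40e-17). Again no arrays overlapped. In sef1Δ cells probe 2 gave 13.3, 13.6, 7.64 and 5.28% P75 at low iron, against 0.873, 1.16 and 0.888% P75 at high iron. Every sef1Δ low-iron array was thus above its own high-iron arrays and below all WT low-iron arrays. In aft1Δ cells the same probe gave 1.1 to 1.72% P75 at low iron, against 1.46 to 1.69% P75 at high iron, and in sef1Δaft1Δ cells 1.48 to 2.72% P75 at low iron, against 1.66 to 2.37% P75 at high iron.

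FRE2 closes the cluster and had the largest WT change on a best probe, the probe of each gene that the study kept. This probe 1 gave 189, 198, 209 and 157% P75 in WT at low iron, against 1.36, 1.45, 1.35 and 1.40% P75 at high iron. Its log2 fold change was 7.07 ± 0.18 (SE, 134-fold, adjusted p = 1.84e-23). Probe 2 gave 49.1, 37.6, 29.7 and 30.0% P75 at low iron, against 2.16, 1.64, 2.11 and 1.82% P75 at high iron (log2 fold change 4.22 ± 0.22, SE, adjusted p = 3.70e-15). Neither probe overlapped between the groups.

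FRE2 probe 1 was well above background in the mutants too. sef1Δ arrays read 129, 91.9, 65.5 and 58.0% P75 at low iron, against 1.25, 1.46 and 1.39% P75 at high iron. aft1Δ arrays read 1.56, 2.30, 1.62 and 1.76% P75 at low iron, against 1.93, 1.74, 2.10 and 1.60% P75 at high iron. sef1Δaft1Δ arrays read 2.48, 2.84, 2.16 and 4.02% P75 at low iron, against 2.11, 1.90, 1.86 and 2.29% P75 at high iron. The low-iron level was high in sef1Δ and overlapped the high-iron level in both strains that lack Aft1. Probe 2 read 18.0 to 35.9% P75 in sef1Δ at low iron and 0.393 to 0.692% P75 in aft1Δ at low iron, where it was not well above background.

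On every cluster probe WT low iron ranked first and sef1Δ low iron second among the 8 groups. The 2 overlapped on FRE5 probes 1 and 2 and on FRE2 probe 2, and did not on the other cluster probes. The group next in rank lay below all sef1Δ low-iron arrays on each cluster probe except FRE3 probe 1. On that probe sef1Δ low iron reached down to 3.78% P75 and sef1Δaft1Δ high iron up to 5.16% P75. These overlaps only describe the probes, as no share of all probes is set beside them. Below WT and sef1Δ low iron, most of the 6 other groups overlapped the next in rank. aft1Δ high iron was an exception for FRE5, next after sef1Δ low iron on both probes and apart from the groups above and below.

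**Figure D2:**
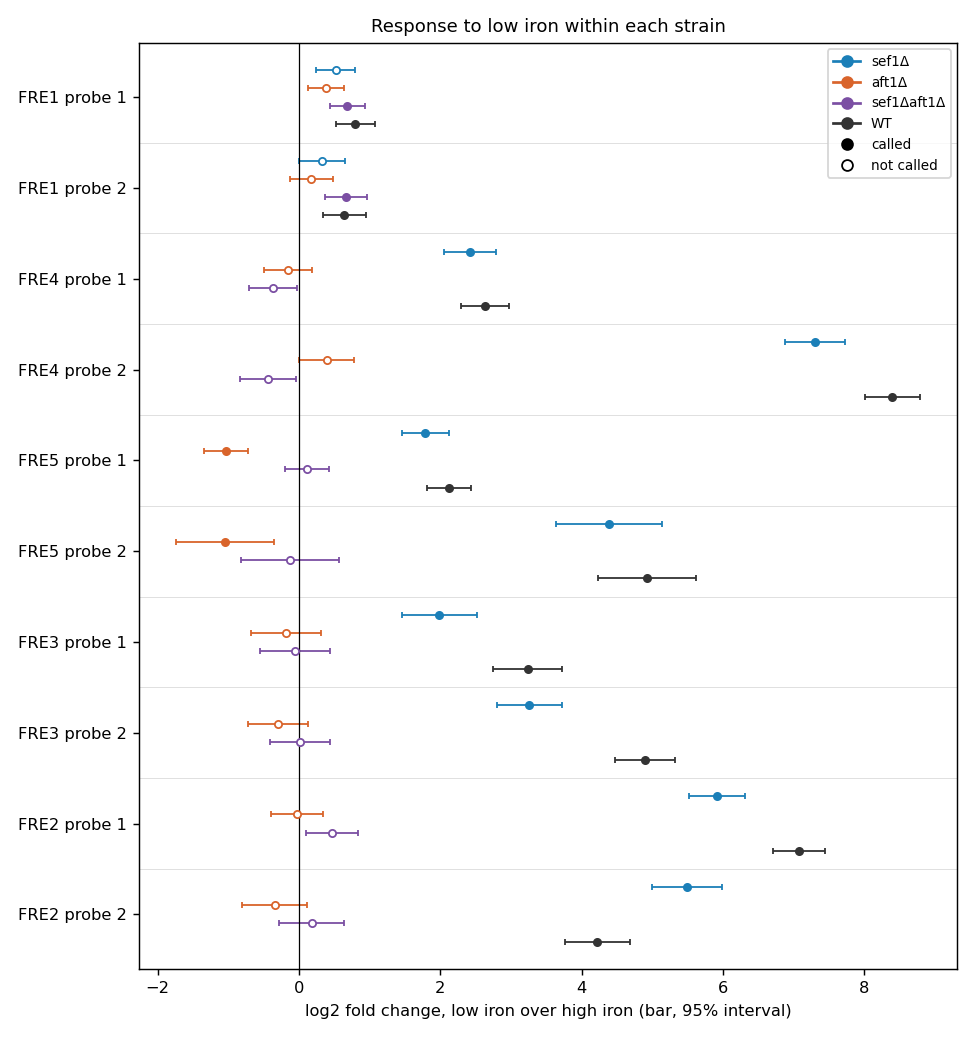
Log2 fold change of low over high iron (x axis) for each FRE probe (rows) in sef1Δ, aft1Δ, sef1Δaft1Δ and WT cells, with 95% intervals, filled where called. The cluster probes lie to the right in sef1Δ and WT and near 0 in the strains without Aft1, except FRE5 in aft1Δ, which lies below 0.

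In sef1Δ cells 8 of 10 probes were called higher at low iron, against 3.3% of all probes, and 0 lower, against 2.36%. These were both probes of the 4 cluster genes, with log2 fold changes between 1.79 (FRE5 probe 1) and 7.30 (FRE4 probe 2). FRE3 probe 1 was called with 1.99 ± 0.26 (SE, adjusted p = 1.67e-06), and was lost only under the methods' t-test (adjusted p = 0.0898). In aft1Δ cells 0 probes were called higher by limma, against 1.61% of all probes, and 2 lower, the FRE5 pair, against 1.99%. At an unadjusted p under 0.05 FRE1 probe 1 alone was higher there. It also passed the adjusted threshold (log2 0.39, adjusted p = 0.0457) and missed the call only because it was under 1.5-fold. In sef1Δaft1Δ cells the 2 FRE1 probes were called higher, against 7.5% of all probes, and 0 lower, against 7.76%. At an unadjusted p under 0.05 FRE4 probes 1 and 2 were lower there, with log2 values of -0.37 and -0.44, and FRE2 probe 1 was higher, by less than 1.5-fold (log2 0.46, adjusted p = 0.0401).

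The aft1Δ response differed from that of WT on all 8 cluster probes, called lower against 3.64% of all probes, and 0 were called higher, against 2.2%. The differences ran from -2.79 ± 0.23 at FRE4 probe 1 (SE, adjusted p = 3.70e-10) to -8.01 ± 0.27 at FRE4 probe 2 (SE, adjusted p = 8.12e-20). For sef1Δaft1Δ the same 8 probes were called lower, against 7.6% of all probes, and 0 higher, against 6.71%. The values ran from -2.01 ± 0.21 at FRE5 probe 1 (SE, adjusted p = 3.65e-08) to -8.84 ± 0.27 at FRE4 probe 2 (SE, adjusted p = 6.31e-21). These 16 calls held under every alternative, arrays left out included. The value for FRE2 probe 2 in aft1Δ, -4.57, rests on low-iron spots that were not well above background.

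The sef1Δ response was smaller than that of WT on 4 probes, against 1.48% of all probes called lower, and larger on 1, against 1.37% called higher. FRE3 probe 2 had the largest shortfall, -1.63 ± 0.31 (SE, adjusted p = 0.00343), which held under all 25 alternatives, with adjusted p between 0.000391 and 0.0228. FRE3 probe 1 (-1.25 ± 0.35, SE, adjusted p = 0.0447), FRE4 probe 2 (-1.09 ± 0.28, SE, adjusted p = 0.0301) and FRE2 probe 1 (-1.16 ± 0.26, SE, adjusted p = 0.0145) were less firm. The first was lost under 14 of 26 alternatives, the second under 11 of 25 and the third under 2 of 26. FRE2 probe 2 went the other way, 1.27 ± 0.33 (SE, adjusted p = 0.0301), lost under 8 of 25. The 2 probes of FRE2 thus gave opposite calls. Without sef1Δ high-iron replicate 2, 1 probe was called lower and 0 higher.

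The high-iron levels of FRE2 also differed by probe. Probe 2 read 0.526 to 0.618% P75 in sef1Δ at high iron, against 1.64 to 2.16% P75 in WT at high iron, without overlap, while probe 1 read 1.25 to 1.46% P75 in sef1Δ, against 1.35 to 1.45% P75 in WT. At low iron both probes were lower in sef1Δ than in WT on average, with overlap for probe 2. The sef1Δ low-iron arrays also differed among themselves. On 7 of the 8 cluster probes replicates 1 and 2 were both above replicates 3 and 4, and replicate 4 was the lowest on 6 and replicate 3 on 2. FRE3 probe 1 spread from 3.78 to 14.0% P75 there, against 20.6 to 31.1% P75 in WT.

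Set against WT at low iron, the mutants differed in the cluster, and FRE1 was not called. In aft1Δ 8 of 10 probes were called lower, against 15.3% of all probes, and in sef1Δaft1Δ 8 of 10, against 11.2%. In both 0 were called higher, against 27.4% and 24.1%. With the array median as the scale FRE1 probe 2 was called lower in aft1Δ too, at a log2 value of -0.61. Both sets of 8 were the cluster probes, and their arrays did not overlap with WT, where 24.7% and 19.1% of all probes were lower without overlap. FRE4 probe 2 was 174-fold lower in aft1Δ (log2 -7.44 ± 0.19, SE, adjusted p = 2.94e-23) and 353-fold lower in sef1Δaft1Δ (log2 -8.46 ± 0.19, SE, adjusted p = 8.99e-25). FRE2 probe 1 was lower by log2 values of -6.71 in aft1Δ and -6.06 in sef1Δaft1Δ. FRE2 probe 2, not well above background in aft1Δ, was lower there by a log2 value of -6.09 (adjusted p = 1.59e-19). The smallest drop over other settings was -4.30. With the background subtracted here, a bound on the drop was 51.1-fold, which does not extend to other background corrections. This bound sets the WT mean against, on each array, the higher of the probe's own signal and the dimmest signal that was still well above background.

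In sef1Δ at low iron 5 of 10 probes were called lower than in WT, against 8.68% of all probes, and 0 higher, against 17.1%. They were both FRE4 probes (log2 -0.82 ± 0.17 and -1.37 ± 0.19, SE), both FRE3 probes (log2 -1.62 ± 0.24 and -1.66 ± 0.21, SE) and FRE2 probe 1 (log2 -1.19 ± 0.18, SE), with adjusted p between 1.35e-07 and 0.000133. FRE5 and FRE1 were not called. Leaving out 1 array at a time gave between 4 and 7 such probes, and without sef1Δ low-iron replicate 4 FRE4 probe 1 was lost, at a log2 value of -0.58.

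**Figure D3:**
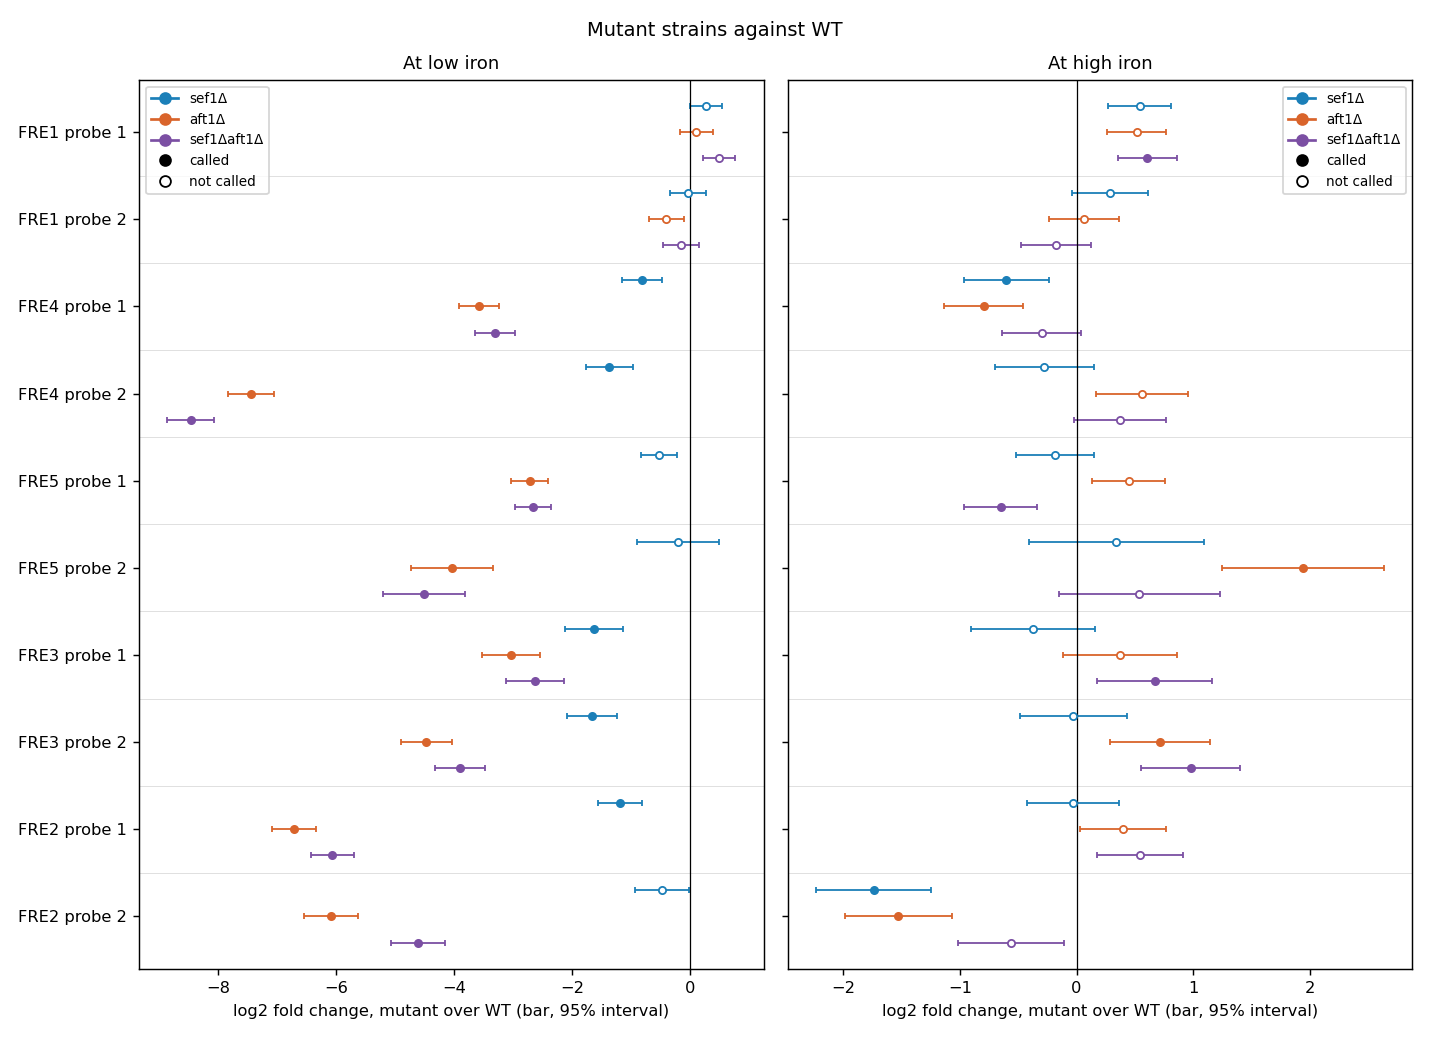
Log2 fold change of each mutant over WT (x axes, which differ in range between the panels) for each FRE probe (rows) at low iron (left) and high iron (right), with 95% intervals, filled where called. At low iron the cluster probes of aft1Δ and sef1Δaft1Δ lie far to the left, and at high iron the point values lie within 1 log2 unit of 0, except FRE5 probe 2 in aft1Δ and FRE2 probe 2 in sef1Δ and aft1Δ.

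At high iron differences from WT were smaller and split in direction. In aft1Δ 2 probes were called higher, against 23.7% of all probes, and 2 lower, against 10.9%. FRE5 probe 2 was higher, at 1.99 to 2.57% P75 in aft1Δ against 0.450 to 0.720% P75 in WT (log2 1.94 ± 0.34, SE, adjusted p = 1.26e-05), or 0.96 under normexp background correction, and FRE3 probe 2 was higher by 0.72. FRE4 probe 1 and FRE2 probe 2 were lower, by log2 values of -0.80 and -1.53. In sef1Δ 0 probes were called higher, against 15.5% of all probes, and 2 lower, against 7.23%, FRE4 probe 1 (-0.60) and FRE2 probe 2 (-1.74 ± 0.24, SE, adjusted p = 9.58e-07). In sef1Δaft1Δ 3 probes were called higher, against 24.9% of all probes, namely FRE1 probe 1 and both FRE3 probes, and FRE5 probe 1 was lower, against 7.89%.

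The share of all probes called higher in mutants over WT depended on the scaling and on the probes used. Over the 6 such comparisons the median log2 fold change of all probes was between 0.095 and 0.168 with the 75th percentile. With the array median as the scale it was between -0.106 and -0.013. Of the aft1Δ calls 68.6% were higher at high iron and 64.2% at low iron, against 46.1% and 46.6% with the median. Of the sef1Δ calls 68.1% were higher at high iron and 66.3% at low iron, against 49.9% and 51.3% with the median. For sef1Δaft1Δ these shares were 75.9% and 68.3%, against 54.1% and 52.6% with the median. Quantile normalization gave shares between 50.2% and 53.9% over the 6 comparisons. With 1 probe a gene the shares at high and low iron were 44.0% and 46.4% in sef1Δ, 55.0% and 53.4% in aft1Δ, and 62.6% and 56.7% in sef1Δaft1Δ. The high-iron calls of FRE3 probe 2 in aft1Δ and of FRE1 probe 1 and FRE3 probe 1 in sef1Δaft1Δ were lost with the median, at log2 values of 0.52, 0.43 and 0.49.

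Between the strains without Aft1, low-iron levels of the cluster probes differed less than either strain differed from WT. In sef1Δaft1Δ against aft1Δ 2 probes were called higher, against 13.2% of all probes, and 1 lower, against 14.3%. FRE2 probe 2 was higher in sef1Δaft1Δ (log2 1.49 ± 0.22, SE, adjusted p = 1.90e-06), at 1.03 to 2.11% P75 against 0.393 to 0.692% P75 in aft1Δ. The smallest log2 value over other settings was 0.64. With the background subtracted here, the bound taken as above was 2.10-fold. FRE2 probe 1 was 1.57-fold higher with overlap. FRE4 probe 2 was 2.03-fold lower (log2 -1.02 ± 0.19, SE, adjusted p = 4.99e-05), at 1.30 to 2.19% P75 in sef1Δaft1Δ against 2.85 to 3.85% P75 in aft1Δ. Without aft1Δ low-iron replicate 1, or without sef1Δaft1Δ low-iron replicate 4, 1 probe was called higher. The responses to iron differed for FRE4 probe 2 (-0.83 ± 0.27, SE, adjusted p = 0.0259, lost under 7 of 26 alternatives) and FRE5 probe 1, as given above, against 7.56% and 6.95% of all probes called lower and higher.

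The size of the iron response depended on which probe read the gene. The difference between the probes of a gene was taken on each array and fitted for all genes with both probes, a comparison added after the values had been seen. In WT the response of probe 2 minus that of probe 1 was 5.77 ± 0.23 for FRE4 (SE, adjusted p = 3.70e-17), 2.80 for FRE5, 1.66 for FRE3 and -2.85 for FRE2. These were 4 of 5 genes, against 0.747% of all genes tested, and FRE1 differed by -0.22 (adjusted p = 0.668). In sef1Δ 3 of 5 genes were called, FRE4, FRE5 and FRE3, against 0.21% of all genes. In aft1Δ and sef1Δaft1Δ 0 of 5 were called by limma, against 0.0574% and 0.287%. At an unadjusted p under 0.05, FRE4 differed in aft1Δ (0.55, adjusted p = 0.803) and 0 genes in sef1Δaft1Δ. None of the 10 probe names carries the mark for cross-hybridization, which 62 probes of the array have, and the names of the second probes of FRE5 and FRE3 end in re, a mark that no source used here explains. The part of probe sequence in these differences was not tested, as the files used here hold no probe sequences.

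In sef1Δ and WT the loci on either side of the cluster had smaller responses than the cluster genes. The 3 loci to the left and the 3 to the right, read by 12 probes, had WT responses between -0.59 and 1.36. Of these probes 2 were called higher and 1 lower, against 3.06% and 1.97% of all probes. Both higher calls belonged to SAKL0F14806g, the neighbour of FRE2, which the study names MOH1. It rose at low iron in every strain, and its response in aft1Δ differed from that in WT by -0.06 and -0.40, neither called. In aft1Δ its 2 probes were the ones called higher among the 12, by up to 0.96, against 1.61% of all probes. Lower calls were 0 there, against 1.99%. In sef1Δaft1Δ 5 were called higher, up to 2.43 at SAKL0F14806g, and 0 lower, against 7.5% and 7.76% of all probes. The cluster probes lay between -0.44 and 0.46 there. Of the 12 probes 0 had a lower response in aft1Δ than in WT in the limma fit, against all 8 cluster probes and 3.64% of all probes. A higher response was called for 1, against 2.2% of all probes. In sef1Δaft1Δ 0 had a lower response than in WT, against 7.6% of all probes, and 4 a higher one, by up to 1.71, against 6.71%. Around FRE1, the 12 probes of 3 loci on each side had WT responses between -0.23 and 0.19. Of these 0 were called higher or lower, against 3.06% and 1.97% of all probes.

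**Figure D4:**
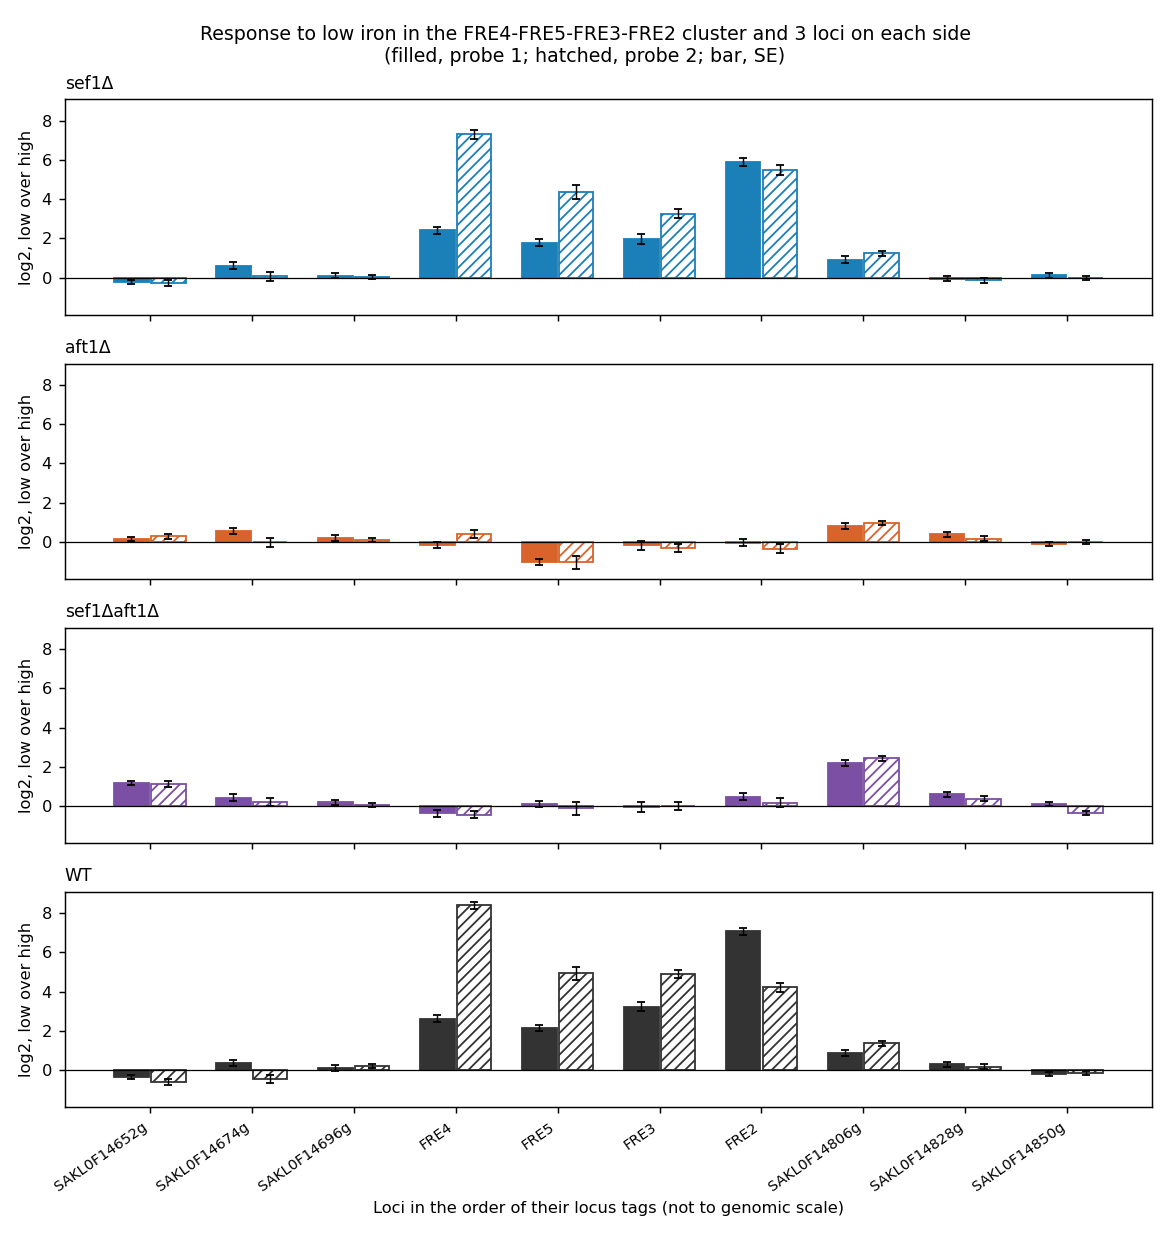
Log2 fold change of low over high iron (y axis, mean and SE) at the 4 cluster genes and 3 loci on each side, in the order of their locus tags, for probe 1 (filled) and probe 2 (hatched) in sef1Δ, aft1Δ, sef1Δaft1Δ and WT cells. In sef1Δ and WT the cluster bars stand above those of the flanking loci, which reach 1.24 in sef1Δ and 1.36 in WT. In the strains without Aft1 the cluster bars are low, and in sef1Δaft1Δ the bars of SAKL0F14806g, up to 2.43, are the tallest of that panel.

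Other genes of iron uptake were read at 1 probe a gene. The 24 other genes that the study lists as iron-uptake-related were chosen by it on these same arrays, so their direction is no independent evidence. In WT 24 of 24 were called higher, against 3.06% of all probes. Their median log2 fold change was 1.94, against 0.0011 over all probes. In sef1Δ 23 of 24 were called higher, against 3.3% of all probes. The list holds AFT1 itself, which is deleted in the aft1Δ strains. In aft1Δ 3 were higher and 2 lower, against 1.61% and 1.99% of all probes, with a median of -0.04. In sef1Δaft1Δ 7 were higher and 2 lower, against 7.5% and 7.76% of all probes, with a median of 0.29. The aft1Δ response was called lower than that of WT for 18 of 24, against 3.64% of all probes. It was called higher for 1, the zinc transporter gene ZRT1, against 2.2% of all probes. In sef1Δ 0 of 24 had a lower response in the limma fit, which is near the 1.48% of all probes called lower. A higher response was called for 3 (YAP5, ZRT1 and SIT2), against 1.37% of all probes, and the median difference was 0.02.

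By role, 2 of 3 other ferric reductase homologs rose in WT, FRE6 by 2.53 and FRE8 by 1.52, and SAKL0C02992g gave -0.19. Over all probes 3.06% were called higher in this comparison. All 5 multicopper oxidase and permease genes rose, with FET3 at 5.49 and FTR1 at 4.16 the largest and FET5 at 1.31 and FTH1 at 0.83 the smallest. All 5 siderophore transporter genes rose, with SIT1 at 5.84 and ARN1 at 5.08 the largest. The smallest among them were ARN3 at 2.09 and SIT2 at 1.68. The 4 copper transporter genes, which serve the copper-dependent oxidases, rose too, between 0.75 for CTR2 and 2.10 for CCC2. In aft1Δ the response was called lower than in WT for 2 of 3, 5 of 5, 4 of 5 and 2 of 4 genes of these groups. Set beside them were 4 of 5 FRE genes on both probes and 3.64% of all probes.

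The probes whose 8 group means were most like those of the cluster probes included genes of the same pathway, over 10567 probes compared. The nearest to FRE2 probe 1 were FRE6 (Pearson r = 0.991) and ARN1 (r = 0.989), and FRE6 also led for FRE4 probe 2 (r = 0.985). For FRE4 probe 1 it was FTR1 (r = 0.984) and for FRE2 probe 2 ARN1 (r = 0.983). The nearest to FRE5 and FRE3 were SAKL0H07238g, SAKL0G10802g and SAKL0G18920g, with r between 0.947 and 0.977. The study names SAKL0H07238g ISU1, in S. cerevisiae a scaffold on which iron-sulfur clusters are built. For FRE1 none of the 6 nearest probes was from an iron uptake list, with r between 0.925 and 0.976. Between the probes of 1 gene r was 0.669 for FRE1 and between 0.945 and 0.985 for the cluster genes. These are descriptions over 8 means that share arrays, with 2 groups setting most of the range.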

How the data were processed

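RNA of 31 samples was labelled with a single dye and hybridised to a custom Agilent array with 2 probes for most genes. The authors extracted intensity values with Agilent Feature Extraction 10.5.1.1, per the file headers background-subtracted and detrended, and also deposited a table of log2 values scaled to the 75th percentile of each array, which differed from values computed here by at most 0.0084. Here log2 processed signal minus each array's 75th percentile was used for all 10620 probes, after removal of control spots and non-uniform outlier spots. Folds of dim probes depend on the background subtracted.

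limma 3.58.1 (R 4.3.3) fitted all 8 group means in 1 model, with Benjamini-Hochberg adjustment over all probes, a threshold of 0.05 and 1.5-fold. The fit was also run on simulated arrays with independent noise for each probe. These held no effect of slide, session or background, so they do not speak to those limits. The study used an unpaired test on 1 probe a gene, run here as an alternative. Genes named are the members, genes with the largest and smallest WT change per list, flanking loci and the nearest probes by correlation. Members and lists were chosen with earlier results of these data known. Replicate numbers are slide columns. Same-numbered arrays deviated together (correlation over 0.1 in each pair) for low and high iron in aft1Δ (0.121 to 0.287) and sef1Δaft1Δ (0.257 to 0.554), and not throughout in WT, sef1Δ or between strains. Array number limits precision. No sequence is printed, as none was in the files used here.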

Additional observations from a re-analysis of the deposited data

Results flagged for a closer look

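A single array stood apart in 5 of 69 groups of 4 arrays, where its gap to the nearest array, as a share of the range of the group, passed Dixon's 95% critical value, and chance gives about 1 in 20 groups. FRE1 probe 1 was lowest in sef1Δaft1Δ high-iron replicate 3 (share 0.845, log2 level -1.77 against -1.52 for the nearest). FRE1 probe 2 was lowest in sef1Δaft1Δ low-iron replicate 4 (share 0.881, log2 level -0.86 against -0.26) and highest in WT high-iron replicate 4 (share 0.901, log2 level -0.77 against -0.89). FRE4 probe 1 was lowest in aft1Δ high-iron replicate 3 (share 0.94, log2 level -0.31 against -0.18) and in sef1Δ low-iron replicate 4 (share 0.877, log2 level 1.68 against 2.57).

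The response to iron differed between strains in 23 tests called by limma. For sef1Δ minus WT the log2 differences were -1.09 at FRE4 probe 2, -1.25 and -1.63 at FRE3 probes 1 and 2, and -1.16 and 1.27 at FRE2 probes 1 and 2. For aft1Δ minus WT they were -2.79 and -8.01 at FRE4, -3.17 and -5.97 at FRE5, -3.42 and -5.19 at FRE3, and -7.11 and -4.57 at FRE2, on probes 1 and 2. For sef1Δaft1Δ minus WT they were -3.003 and -8.84 at FRE4, -2.01 and -5.05 at FRE5, -3.29 and -4.88 at FRE3, and -6.61 and -4.04 at FRE2. For sef1Δaft1Δ minus aft1Δ they were -0.83 at FRE4 probe 2 and 1.15 at FRE5 probe 1.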

How the results depend on the processing

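Of the values recomputed for single probes, 3042 stayed on their side of the threshold, 101 lost a call, 32 gained one and 0 turned round. With the replicate number as a block no call and no count changed, and the WT count stayed at 10 probes higher. Low signal limits FRE2 probe 2 and FRE5 probe 2, and how much of the spread comes from cultures cannot be told.

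Counts of probes called moved as follows, and the cause was not tested except that 1 probe a gene tests 5 genes. With 1 probe a gene, low against high iron gave 5 higher in WT, 4 in sef1Δ and 1 in sef1Δaft1Δ, and 1 lower in aft1Δ. At low iron it gave 3 lower in sef1Δ than in WT, 4 in aft1Δ and 4 in sef1Δaft1Δ, and for sef1Δaft1Δ against aft1Δ 1 higher and 0 lower. At high iron against WT it gave 1 lower in sef1Δ, 0 higher and 1 lower in aft1Δ, and 1 higher in sef1Δaft1Δ. Its response differences were 0 higher and 2 lower for sef1Δ, 4 lower for aft1Δ, 4 lower for sef1Δaft1Δ, and 0 lower for sef1Δaft1Δ against aft1Δ.

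Quantile normalization gave 1 higher in aft1Δ against WT at high iron, 0 higher and 2 lower in sef1Δaft1Δ, 1 lower in sef1Δ, and 0 higher for the sef1Δ response difference. It gave 1 higher and 2 lower for sef1Δaft1Δ against aft1Δ at low iron, and 1 lower for low against high iron in aft1Δ and in sef1Δaft1Δ. The array median gave, at high iron against WT, 1 higher in aft1Δ, and 1 higher and 2 lower in sef1Δaft1Δ. It gained FRE1 probe 2 lower in aft1Δ and FRE5 probe 1 lower in sef1Δ against WT at low iron, FRE2 probe 2 lower in sef1Δaft1Δ against WT at high iron and FRE3 probe 2 higher in sef1Δaft1Δ against aft1Δ at low iron, with log2 values of -0.61, -0.63, -0.74 and 0.63. With normexp, 1 probe was higher in aft1Δ and 1 in sef1Δaft1Δ against WT at high iron, 1 higher and 0 lower for sef1Δaft1Δ against aft1Δ at low iron, 1 lower for low against high iron in aft1Δ, 1 lower for the sef1Δ response difference and 0 lower for that of sef1Δaft1Δ against aft1Δ. The deposited log2 table, outlier spots kept and a trended robust fit each gave 1 lower in aft1Δ at low against high iron. Only the arrays compared gave 2 lower for the sef1Δ response difference. The methods' t-test gave 7 higher in sef1Δ at low against high iron, without FRE3 probe 1, 1 higher for sef1Δaft1Δ against aft1Δ at low iron, 1 higher in sef1Δaft1Δ and 1 lower in aft1Δ at low against high iron, and 1 lower in sef1Δ against WT at high iron. A fold of at least 2 gave 8 higher in WT at low against high iron, without FRE1, and 4 lower in sef1Δ against WT at low iron, without FRE4 probe 1. It gave, at high iron against WT, 1 higher and 1 lower in aft1Δ, 0 higher and 0 lower in sef1Δaft1Δ and 1 lower in sef1Δ. It gave 1 higher for sef1Δaft1Δ against aft1Δ at low iron, 0 higher in sef1Δaft1Δ at low against high iron and 0 lower for the response difference of sef1Δaft1Δ against aft1Δ.

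Leaving out 1 array gave ranges of 1 to 2 lower for low against high iron in aft1Δ and 1 to 2 higher in sef1Δaft1Δ. At high iron against WT they were 1 to 2 lower in sef1Δ, and 1 to 4 higher and 1 to 2 lower in sef1Δaft1Δ. For sef1Δaft1Δ against aft1Δ at low iron they were 1 to 3 higher and 1 to 2 lower. The response difference ranged over 0 to 1 higher and 1 to 4 lower for sef1Δ, and 1 to 3 higher and 0 to 1 lower for sef1Δaft1Δ against aft1Δ. The probe-pair counts, whose alternatives were chosen after seeing the data, did not move under another scaling, background correction, the deposited table or outliers kept.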
